A study of Mus musculus with 50 samples.

Results

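The genes described here encode the proteins of the cytoplasmic ribosome. They were taken by name, as every gene symbol made of Rpl or Rps, a number and at most 1 closing letter a, x, y or l, and 77 of the 24391 genes in the count tables fitted that pattern. Of these, 46 encode proteins of the large subunit (Rpl) and 31 proteins of the small subunit (Rps). The X chromosome carries 4 of them, Rps4x, Rpl10, Rpl36a and Rpl39, and the autosomes carry 73. Ribosomal proteins named otherwise, such as Rplp0, Rpsa and Fau, fall outside the pattern and are described with the related gene lists.

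A ribosome holds each of its proteins once in nearly every case, and cells keep the supply of the different proteins matched. Their mRNAs are known to begin with a cytosine followed by a run of pyrimidines, the 5′ terminal oligopyrimidine (TOP) motif, through which mTOR signalling sets how well they are translated. Most mammalian ribosomal protein genes also have many processed pseudogene copies in the genome, so that short reads from them often match several places.

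Poly(A) RNA was sequenced from mouse embryonic stem (ES) cells and mouse embryonic fibroblasts (MEF) of a CAST/Ei x 129/Sv/Jae background, in which reads over strain variants can be given to the 129 or the CAST chromosome. The ES groups were RepB-/-, RepB+/- and wild type, with 2 libraries each, where RepB is Repeat B, a tandem repeat of the non-coding RNA Xist that brings Polycomb complexes to the inactive X chromosome. The ES cells had been freed of fibroblast feeders and differentiated for 4 days as embryoid bodies and 10 days on plates. The MEF groups were RepB and wild type, with 1 library each. The titles do not say which Xist copy lost the repeat in RepB+/- cells, nor whether the RepB MEF lost it on 1 or both copies, and they do not say how many clones or separate cultures stand behind the ES libraries, so that a p-value here measures how far these libraries scatter and may be technical.

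Total gene counts ran from 8000722 to 28045645 per library, and the lowest was RepB+/- replicate 2. Xist had between 771 and 1101 CPM (counts scaled to a common library size) in the 6 ES libraries, 567 CPM in RepB MEF and 477 CPM in wild-type MEF. A count over the whole gene says little about a deletion inside it. The ES libraries carried markers of several tissues: 8 pluripotency genes summed to 389 to 633 CPM in RepB cells and to 189 and 223 CPM in wild type, and 8 cardiac muscle genes summed to 179 to 236 CPM in RepB cells and to 455 and 498 CPM in wild type. All 8 genes of each of these lists were under 1 CPM in both MEF libraries. A list of 8 fibroblast genes summed to 36580 CPM in RepB MEF, 43140 CPM in wild-type MEF and 16340 to 30590 CPM in the ES libraries. Under 1 CPM were 3 of them in RepB MEF, 1 in wild-type MEF and 0 in each ES library. In bulk RNA, fewer cells of a type and less RNA per cell cannot be told apart, and the part of this mixture in the results below was not tested.

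The ribosomal protein genes together made up about 1% of all counts in every library. Their share was 1.17% and 0.943% in RepB-/- cells, 1.09% and 1.14% in RepB+/- cells, and 1.16% and 1.12% in wild-type ES cells. It was 0.901% in RepB MEF and 0.868% in wild-type MEF. The RepB-/- pair spans the wild-type values, and the means were 1.06% ± 0.161 in RepB-/- cells, 1.12% ± 0.0343 in RepB+/- cells and 1.14% ± 0.0276 in wild type (SD, n = 2 each). The difference from wild type was -0.0798 percentage points for RepB-/- (exact two-sided permutation test, p = 1.0) and -0.0217 points for RepB+/- (exact two-sided permutation test, p = 0.667). The sign of the difference turned for RepB-/- without RepB-/- replicate 2 (0.0343 points) and for RepB+/- without RepB+/- replicate 1 (0.00257 points). With 2 libraries against 2 such a test cannot reach 0.05.

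Although the proteins enter the ribosome in equal numbers, the counts per gene did not resemble one level. CPM divided by the exon length in kilobases (RPKM), which allow genes to be compared, had a median over the 77 genes of 44.7 and 73.5 in RepB-/- cells, 47.5 and 67.9 in RepB+/- cells, and 74.0 and 77.3 in wild-type ES cells. Rpl8, a large-subunit protein near the peptidyl transferase centre, stood first in wild-type ES cells. It had 1176 and 1047 RPKM in RepB-/- cells, 977 and 1358 RPKM in RepB+/- cells, 1292 and 1632 RPKM in wild-type ES cells, 1874 RPKM in RepB MEF and 1778 RPKM in wild-type MEF. Also near the top in wild-type ES cells were Rpl41, the smallest protein of the ribosome, at 1163 ± 129 RPKM, and Rps15, a protein of the small-subunit head, at 1109 ± 157 RPKM (SD, n = 2 each). The SDs of Rpl41 and Rps15 overlap.

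At the other end, Rpl39l, a copy of Rpl39 known from the testis, had 1.57 ± 0.210 RPKM in wild-type ES cells, and Rpl30, an ordinary large-subunit protein, had 0.749 ± 0.0457 RPKM. Rpl26, which also belongs to every ribosome, had 0.138 ± 0.195 RPKM, and Rpl3l, a copy of Rpl3 known from skeletal and heart muscle, had 0.0469 ± 0.0663 RPKM (SD, n = 2 each). Rpl26 was at 0 counts in 1 RepB-/- library, in 1 wild-type ES library and in both MEF libraries, and Rpl3l at 0 in 1 wild-type ES library and in wild-type MEF. A count of 0 allows up to 3 counts, which is 0.291 CPM in wild-type MEF and 0.131 CPM in RepB-/- replicate 2. These floors cover counting error only.

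Under 10 CPM in all 6 ES libraries were 14 genes, among them constituents of every ribosome such as Rpl26, Rpl30, Rps27a, Rps29 and Rps23, while the 10 most read genes held 58.8% to 65.6% of all ribosomal protein counts in the ES libraries and 69.5% and 69.0% in RepB and wild-type MEF. How the authors treated reads that match several places is not given in the sources used here. An RPKM here is a level of assigned reads, and the part of such reads in the low counts was not tested. The ranked plot shows all 77 genes in the 5 groups.

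**Figure D1:**
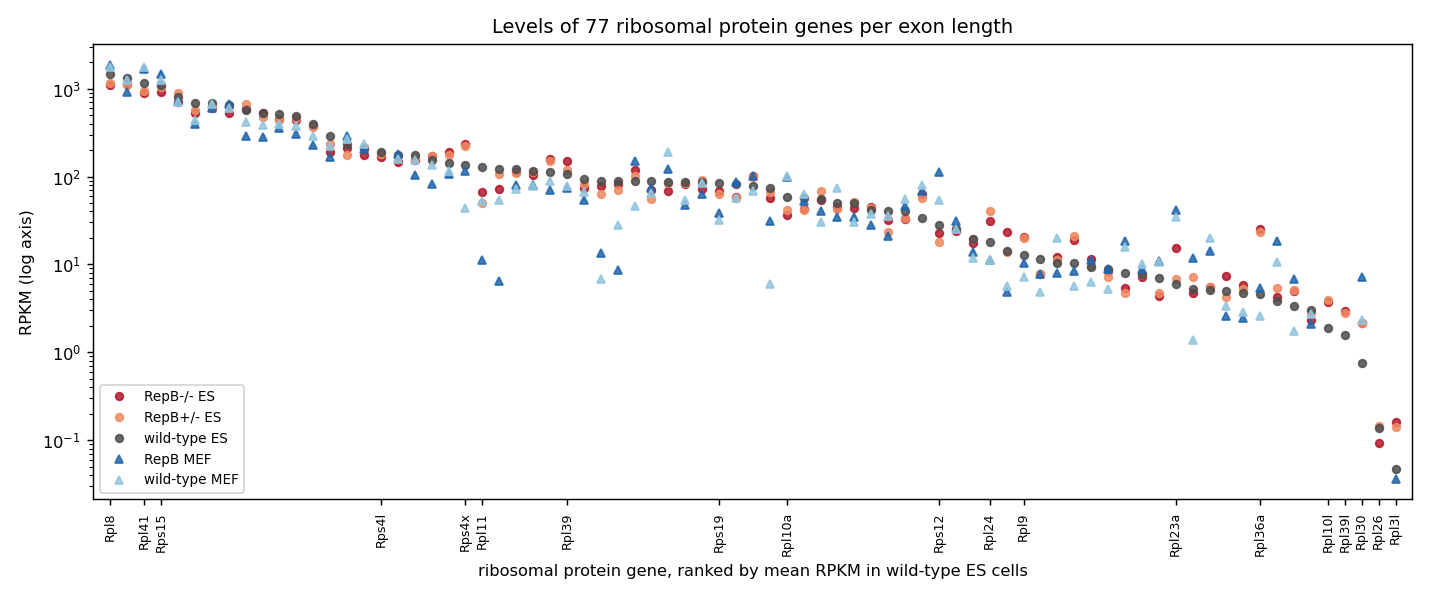
RPKM (log axis) of the 77 ribosomal protein genes, ranked by their mean in wild-type ES cells, with some genes named. Circles are means of 2 ES libraries and triangles single MEF libraries, and values of 0 are not drawn. Rpl8 leads at 1462 RPKM in wild-type ES cells and Rpl3l closes the row at 0.0469 RPKM.

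The promoters of these genes differ from most others in sequence. RefSeq promoter windows of build GRCm38.p6, from 250 bases before to 50 bases after the annotated start, were matched by symbol for 57 of the 77 genes and gave 69 windows. A C at the start followed by at least 4 C or T, the form of a TOP motif, was found in 12 of 69 windows (17.4%), against 2.51% of all 32851 promoter windows. Starts within 5 bases of such a motif raised this to 42.0%, against 18.3% of all windows. A run of at least 8 C or T within 50 bases of the start was found in 81.2% of the windows, against 35.7% of all windows, and the median longest run was 10 bases, against 7.

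Searched on both strands over the whole window, CCGGAA, the core bound by GABP and other ETS factors, was found in 46.4% of the windows, against 14.9% of all windows. AAGATGG, the core bound by YY1, was found in 15.9%, against 6.34%, and the TATA box TATAAA in 7.25%, against 13.6%. These are matches of letters and not binding sites. Below are 30-base stretches of the promoters of genes that the results turn on, read 5′ to 3′ on the gene's strand around the longest C or T run within 50 bases of the start, which is in capitals.
Rps4x: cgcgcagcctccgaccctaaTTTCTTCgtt
Rpl10: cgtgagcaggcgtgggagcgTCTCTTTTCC
Rpl36a: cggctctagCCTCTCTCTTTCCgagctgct
Rpl39: gttcttccggtcccggCCTTTCTCTTCTCC
Rpl11: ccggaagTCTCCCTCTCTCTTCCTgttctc
Rpl9: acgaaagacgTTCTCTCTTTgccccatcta
Rps12: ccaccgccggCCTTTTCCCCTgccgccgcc
Rpl37: ggcgggggtgCTTTCTCTTCCggtctcttt
Rpl10l: ctatgaTTCCCgcaaggcttgatgggtaac
Rpl39l: aacacccactgCCTCTCCCTagctcccagg
The promoter windows they come from lie in GRCm38.p6 on the plus strand at chrX:74270566-74270865 (Rpl10), chrX:134585404-134585703 (Rpl36a), chr15:5116363-5116662 (Rpl37) and chr16:10169978-10170277 (Rpl39l). Those on the minus strand lie at chrX:102189342-102189641 (Rps4x), chrX:37085173-37085472 (Rpl39), chr4:136053344-136053643 (Rpl11), chr5:65391382-65391681 (Rpl9), chr10:23787160-23787459 (Rps12) and chr12:66284352-66284651 (Rpl10l). The run was 17 bases long at Rpl11 and 13 at Rpl36a. At Rpl39 and Rpl10 it reaches the end of the window, so that the 14 bases at Rpl39 are a lower limit. It was 5 at Rpl10l, a retrocopy of Rpl10 that is read in 1 exon. Rps4x, with a run of 7, stands at the median of all promoters.

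The first comparison asks how the loss of Repeat B went with the level of each gene in ES cells. In edgeR's quasi-likelihood test, fitted over 15149 genes with Benjamini-Hochberg adjustment at 0.05, 75 of the 77 genes could be tested, all except Rpl26 and Rpl3l. In RepB-/- cells against wild type, 7 rose and 2 fell, where 12.8% of all genes tested were called (7.27% rose and 5.49% fell). In RepB+/- cells against wild type, 4 rose and 4 fell, where 16.0% of all genes were called (9.12% rose and 6.84% fell). With total counts in place of TMM scaling, 8 rose and 1 fell in RepB-/- cells, where 1269 of all genes rose and 461 fell. In RepB+/- cells 4 rose and 1 fell, where 1612 of all genes rose and 565 fell. The median of all genes moved to 0.09 and 0.10. With TMM, the median log2 fold change of the ribosomal protein genes was -0.17 in RepB-/- cells, against 0.01 for all genes. In RepB+/- cells it was -0.06, against 0.02 for all genes. The first was -0.32 without RepB-/- replicate 1, -0.03 without RepB-/- replicate 2 and -0.08 without wild-type replicate 1, and the second 0.03 without wild-type replicate 1 and -0.12 without wild-type replicate 2. The large-subunit and small-subunit medians were -0.17 and -0.15 in RepB-/- cells and -0.02 and -0.08 in RepB+/- cells.

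Across the 2 comparisons, which share the wild-type libraries, 11 different genes were called and 6 of them in both. Each of the 17 calls was lost under at least 1 of 14 alternative settings, 16 of them without 1 of the ES libraries and 10 with DESeq2. The number of called genes in each comparison changed with the ES library that was left out, and so did the number over all genes tested. Leaving out 1 wild-type library lowered both numbers.

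Among genes that rose, Rpl24, a large-subunit protein at the interface with the small subunit, had 26.5 and 16.1 CPM in RepB-/- cells, 27.0 and 27.9 CPM in RepB+/- cells and 16.1 and 8.64 CPM in wild type. All 4 RepB libraries lie above wild type, though RepB-/- replicate 2 is level with wild-type replicate 1. The log2 fold change was 0.76 ± 0.24 in RepB-/- cells (SE, edgeR adjusted p = 0.0460) and 1.12 ± 0.24 in RepB+/- cells (SE, edgeR adjusted p = 0.00596). Rpl9, a large-subunit protein near the base of the P stalk, had 13.3 and 16.5 CPM in RepB-/- cells, 16.3 and 12.3 CPM in RepB+/- cells and 8.68 and 9.62 CPM in wild type, with no overlap. Its log2 fold change was 0.71 ± 0.18 in RepB-/- cells (edgeR adjusted p = 0.0163) and 0.70 ± 0.18 in RepB+/- cells (edgeR adjusted p = 0.0186).

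Rpl10l, the retrocopy of Rpl10 known to be needed in male meiosis, was low everywhere. It had 3.96 and 3.77 CPM in RepB-/- cells, 3.77 and 4.32 CPM in RepB+/- cells and 1.45 and 2.45 CPM in wild type. All 4 RepB libraries lie above both wild-type libraries, and the log2 fold change was 1.05 ± 0.29 in RepB-/- cells (edgeR adjusted p = 0.0276) and 1.09 ± 0.31 in RepB+/- cells (edgeR adjusted p = 0.0241). Rpl23a, which sits at the exit of the peptide tunnel, was called in RepB-/- cells, with 12.7 and 4.43 CPM, against 3.94 and 2.77 CPM in wild type, a log2 fold change of 1.34 ± 0.38 (edgeR adjusted p = 0.0309). Replicate 1 carries most of that difference: without it the log2 fold change was 0.38 (edgeR adjusted p = 0.617).

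Rps27l, a copy of Rps27 known as a p53 target, had 51.0 and 43.1 CPM in RepB-/- cells, 49.8 and 41.9 CPM in RepB+/- cells and 36.0 and 36.4 CPM in wild type. The RepB libraries are all above wild type, and the log2 fold change of 0.38 ± 0.12 passed the threshold in RepB-/- cells (edgeR adjusted p = 0.0494), while 0.36 ± 0.12 in RepB+/- cells did not (edgeR adjusted p = 0.0566). Whether the genotypes differ in this gene was tested directly, with a log2 fold change of 0.02 in RepB-/- over RepB+/- (edgeR adjusted p = 0.991).

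Rpl11 fell furthest. Together with Rpl5 and 5S rRNA this protein is known to bind Mdm2, and so links ribosome assembly to p53. It had 47.9 and 31.8 CPM in RepB-/- cells, 43.4 and 16.3 CPM in RepB+/- cells and 85.1 and 67.7 CPM in wild type, and no RepB library reaches wild type. The log2 fold change was -0.93 ± 0.27 in RepB-/- cells (edgeR adjusted p = 0.0312) and -1.26 ± 0.28 in RepB+/- cells (edgeR adjusted p = 0.00655), and DESeq2 called neither. Rpl10a, a protein of the L1 stalk, had 31.7 and 28.7 CPM in RepB-/- cells, 38.4 and 30.2 CPM in RepB+/- cells and 54.9 and 42.4 CPM in wild type, again with no overlap. Its log2 fold change was -0.69 ± 0.14 in RepB-/- cells (edgeR adjusted p = 0.00439) and -0.48 ± 0.14 in RepB+/- cells (edgeR adjusted p = 0.0326).

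Rps12, a small-subunit protein, had 12.8 and 10.6 CPM in RepB-/- cells, 9.40 and 9.00 CPM in RepB+/- cells and 14.01 and 15.08 CPM in wild type. Every RepB library is below wild type. It fell in RepB+/- cells (log2 fold change -0.64 ± 0.17, edgeR adjusted p = 0.0188) and had -0.30 ± 0.16 in RepB-/- cells (edgeR adjusted p = 0.234). Rps21, another small-subunit protein, had 90.06 and 73.7 CPM in RepB-/- cells, 69.6 and 66.2 CPM in RepB+/- cells and 89.99 and 92.7 CPM in wild type. It fell in RepB+/- cells (-0.41 ± 0.11, edgeR adjusted p = 0.0222), and 1 RepB-/- library lies within the wild-type range, with a log2 fold change of -0.15 (edgeR adjusted p = 0.402).

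Between RepB-/- and RepB+/- cells no ribosomal protein gene was called by edgeR, where 0.0858% of all genes were called (0.0198% rose and 0.0660% fell). In that test 6 had an unadjusted p under 0.05. DESeq2 called 0 with 3 under 0.05, where 13 of all genes rose and 17 fell. The lowest p belonged to Rps15a, a small-subunit protein, with 51.7 and 23.9 CPM in RepB-/- cells against 21.3 and 22.1 CPM in RepB+/- cells, a log2 fold change of 0.81 ± 0.24 (edgeR adjusted p = 0.400). Rpl23a followed with 12.7 and 4.43 CPM against 4.82 and 2.84 CPM (1.07 ± 0.37, edgeR adjusted p = 0.515). In both genes 1 RepB-/- library, replicate 1, is high.

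**Figure D2:**
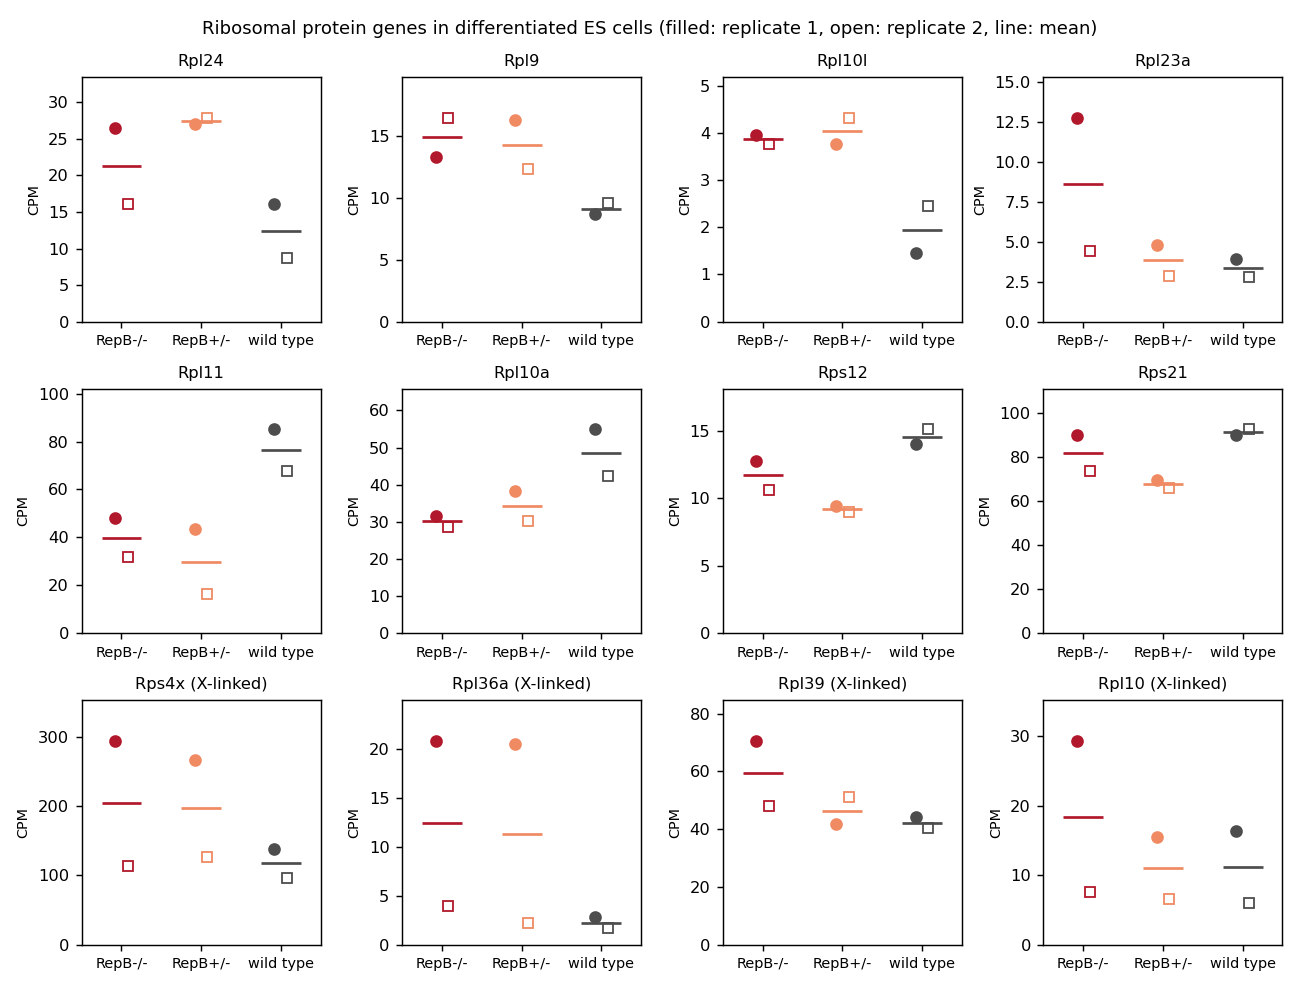
CPM (linear axes from 0) of 12 ribosomal protein genes in the 6 ES libraries, with RepB-/-, RepB+/- and wild type from left to right. Filled circles are replicate 1, open squares replicate 2 and lines group means. Rpl9, Rpl10l, Rpl11 and Rpl10a show no overlap between RepB and wild-type libraries, while Rpl36a is high in 2 libraries, both replicate 1.

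Counted by position of the libraries alone, 10 of 75 genes had both RepB-/- libraries above both wild-type libraries and 26 had both below, where 31.2% and 28.2% of all genes did. In RepB+/- cells 6 were above and 17 below, where 30.5% and 28.1% of all genes were. Genes with all libraries above wild type were thus 10 of 75 and 6 of 75, under the shares of all genes. Those with all below were over the share of all genes at 26 of 75 in RepB-/- cells and under it at 17 of 75 in RepB+/- cells.

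The replicates of one genotype lay further apart in these genes than in others. The median absolute log2 difference between replicate 1 and replicate 2 was 0.339 in RepB-/- cells, 0.391 in RepB+/- cells and 0.311 in wild type over the 75 genes, and 0.148, 0.195 and 0.154 over the 15074 other genes tested. The gap was also there among well-read genes: with a mean of 500 counts or more, the medians were 0.282, 0.391 and 0.256 for 49 ribosomal protein genes and 0.115, 0.138 and 0.107 for 7342 other genes. More than 2-fold apart were 16, 10 and 6 of the 75 genes, where 1.74%, 4.95% and 3.88% of all genes were.

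**Figure D3:**
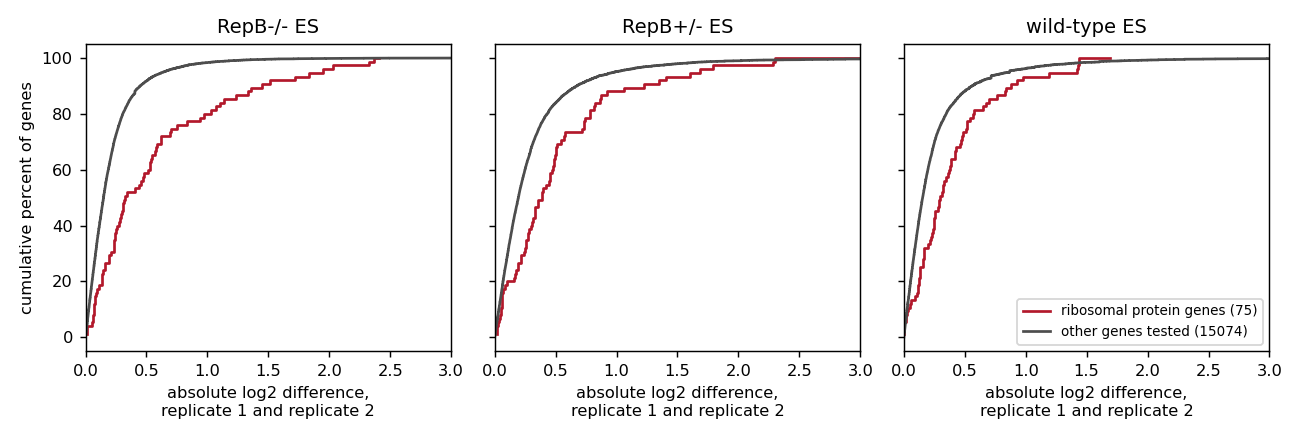
Cumulative percent of genes (vertical axis) against the absolute log2 difference between the replicates of a genotype (horizontal axis), in RepB-/-, RepB+/- and wild-type ES cells. Red lines are 75 ribosomal protein genes and grey lines 15074 other genes. The red line lies to the right over most of its range in each genotype, with a median of 0.339 against 0.148 in RepB-/- cells.

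Part of that spread followed the replicate number. In 13 genes all 3 libraries numbered 1 were higher than all 3 numbered 2, where 5.02% of all genes were, and in 2 genes, Rpl21 and Rpl13, all were lower, where 4.26% were. Rpl36, a large-subunit protein, had 28.7 and 7.98 CPM in RepB-/- cells, 26.9 and 8.26 CPM in RepB+/- cells and 30.1 and 11.01 CPM in wild type, replicate 1 first. Rps18, of the small-subunit head, had 120 and 60.7 CPM, 99.5 and 81.4 CPM, and 119 and 43.6 CPM in the same order. In both, the replicate number separates the libraries and the genotype does not. The X-linked genes Rps4x and Rpl10 belong to these 13 as well. The ES libraries numbered 1 and those numbered 2 were deposited in 2 tables, and what else set them apart is not given in the sources used here.

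The X-linked genes bear on the question of the study, which asks how genes of the inactive X behave without Repeat B. The 4 had a median log2 fold change of 0.74 in RepB-/- cells and 0.44 in RepB+/- cells, and all were positive there, but each of the 4 turned negative in at least 1 comparison when 1 library was left out, with values given under each gene. The 71 autosomal ribosomal protein genes had medians of -0.17 and -0.08, and the 562 X-linked genes tested had 0.36 and 0.37. Of the 4, 2 rose in RepB-/- cells, where 177 of the 562 did, and 1 rose in RepB+/- cells, where 188 of the 562 did.

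Rps4x encodes a small-subunit protein, and its human counterpart is known to escape X inactivation while the mouse gene is known to be silenced. The exon that the tables list for it lies at chrX:99380282-99380470 of build mm9. It had 294 and 114 CPM in RepB-/- cells, 267 and 127 CPM in RepB+/- cells, 139 and 96.2 CPM in wild-type ES cells, 101 CPM in RepB MEF and 38.6 CPM in wild-type MEF. Within each replicate number the RepB values exceed wild type, but the RepB libraries numbered 2 lie under wild-type replicate 1. The log2 fold change was 0.80 ± 0.34 in RepB-/- cells (edgeR adjusted p = 0.135) and 0.77 ± 0.34 in RepB+/- cells (edgeR adjusted p = 0.134). With replicate number added to the fit as a block, the gene was called in both comparisons, with values given in the last section. The labels do not say that these numbers pair samples. The size rests on the RepB libraries numbered 1. Without RepB-/- replicate 1 the value for RepB-/- was -0.037 (edgeR adjusted p = 0.965), and without RepB-/- replicate 2 it was 1.32 (edgeR adjusted p = 0.0139). Without RepB+/- replicate 1 the value for RepB+/- was 0.12 (edgeR adjusted p = 0.831), and without RepB+/- replicate 2 it was 1.18 (edgeR adjusted p = 0.00633).

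Rpl36a, a large-subunit protein at the exit site for tRNA, is listed at chrX:131120193-131120258. It had 20.8 and 3.99 CPM in RepB-/- cells, 20.4 and 2.22 CPM in RepB+/- cells, 2.79 and 1.71 CPM in wild-type ES cells, 2.60 CPM in RepB MEF and 1.26 CPM in wild-type MEF. The 2 high values are replicate 1 of RepB-/- and of RepB+/- cells, and the other 4 ES libraries lie between 1.71 and 3.99 CPM. It was called in both comparisons, at 2.43 ± 0.74 in RepB-/- cells (edgeR adjusted p = 0.0406) and 2.48 ± 0.74 in RepB+/- cells (edgeR adjusted p = 0.0337). Without RepB+/- replicate 1 the value for RepB+/- was -0.065 (edgeR adjusted p = 0.973), and without RepB-/- replicate 1 the value for RepB-/- was 0.78 (edgeR adjusted p = 0.616).

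Rpl39, the short protein that lines the peptide tunnel, is listed at chrX:34622515-34622744. It had 70.5 and 48.2 CPM in RepB-/- cells, 41.6 and 51.0 CPM in RepB+/- cells, 44.3 and 40.4 CPM in wild-type ES cells, 29.3 CPM in RepB MEF and 30.9 CPM in wild-type MEF. Only the RepB-/- libraries both lie above wild type, and the gene rose in RepB-/- cells (0.49 ± 0.15, edgeR adjusted p = 0.0474) and had 0.12 ± 0.16 in RepB+/- cells (edgeR adjusted p = 0.637). Without RepB-/- replicate 1 the value for RepB-/- was 0.19 (edgeR adjusted p = 0.529), and without RepB+/- replicate 2 the value for RepB+/- was -0.029 (edgeR adjusted p = 0.929). Rpl10, which joins the large subunit late in its maturation, is listed at chrX:71516155-71516213. It had 29.3 and 7.54 CPM in RepB-/- cells, 15.5 and 6.54 CPM in RepB+/- cells, 16.4 and 6.03 CPM in wild-type ES cells, 3.88 CPM in RepB MEF and 4.47 CPM in wild-type MEF. Replicate 1 exceeds replicate 2 in each genotype. With replicate number as a block, Rpl10 was called in RepB-/- cells against wild type. In the fit without it, the log2 fold changes of 0.69 in RepB-/- cells (edgeR adjusted p = 0.378) and 0.05 in RepB+/- cells (edgeR adjusted p = 0.959) passed no threshold. Their sign turned without RepB-/- replicate 1 (-0.61 in RepB-/- cells) and without RepB+/- replicate 1 (-0.82 in RepB+/- cells), and in RepB+/- cells also with DESeq2 (-0.022).

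Reads over strain variants, 26.7% to 28.0% of all counts, were given to the 129 or the CAST chromosome. In the median X-linked gene other than these, 129 reads made up 35.4% and 34.0% in RepB-/- cells, 35.6% and 30.9% in RepB+/- cells, 5.26% and 6.47% in wild-type ES cells, 0.412% in RepB MEF and 0.00% in wild-type MEF. Rps4x and Rpl39 lay above that median in every library. Rps4x had 96.9% and 97.1% in RepB-/- cells, 96.4% and 97.2% in RepB+/- cells, 90.8% and 81.9% in wild-type ES cells, 86.5% in RepB MEF (exact Clopper-Pearson 95% interval 83.5 to 89.1) and 89.2% in wild-type MEF (83.9 to 93.2). In wild-type ES cells and in both MEF libraries, where other X-linked genes were read almost only from CAST, Rps4x was read mostly as 129. The part of near-identical copies elsewhere in the genome in the X-linked shares and ratios was not tested.

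Rpl39 had 99.8% and 98.8% in RepB-/- cells, 88.1% and 100.0% in RepB+/- cells, 98.3% and 95.2% in wild-type ES cells, and 100.0% in both MEF libraries, on 35 reads in RepB MEF and 12 in wild-type MEF. The ES shares rest on 940 and 84 allelic reads in RepB-/-, 118 and 31 in RepB+/- and 180 and 21 in wild-type cells. All reads of the gene in RepB-/- cells were 2119 and 1099. Rpl10 was closer to the other genes of the chromosome, with 64.3% and 70.4% in RepB-/- cells, 64.3% and 66.7% in RepB+/- cells, 15.4% and 50.0% in wild-type ES cells and 0.00% in both MEF libraries. It had 2 to 42 allelic reads per ES library, which limits these shares. Rpl36a had 18 allelic reads over the ES libraries, 5 in RepB-/- replicate 1 and 13 in RepB+/- replicate 1, all CAST.

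The change in the 129 to CAST ratio could be tested for Rps4x, Rpl39 and Rpl10. Rps4x shifted toward 129, by 2.21 ± 0.23 on the log2 scale in RepB-/- cells (edgeR adjusted p = 2.97e-19) and 2.04 ± 0.24 in RepB+/- cells (edgeR adjusted p = 3.74e-15), and the shift was called under all 9 alternatives tried. It was 1 call of 3 genes in each comparison, where 2.43% of all genes were called in RepB-/- cells and 2.40% in RepB+/- cells, and where 62.1% and 59.7% of the 377 X-linked genes tested were called toward 129, and the median X-linked gene shifted by 2.91 and 2.86. The 129 reads of Rps4x were at 146 and 57.8 CPM in RepB-/- cells, 131 and 67.2 CPM in RepB+/- cells and 51.9 and 36.5 CPM in wild type. Its CAST reads were at 4.76 and 1.75 CPM in RepB-/- cells, 4.95 and 1.97 CPM in RepB+/- cells and 5.28 and 8.07 CPM in wild type, so that the shift was made of more 129 reads and fewer CAST reads, with wild-type replicate 2 highest in CAST.

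**Figure D4:**
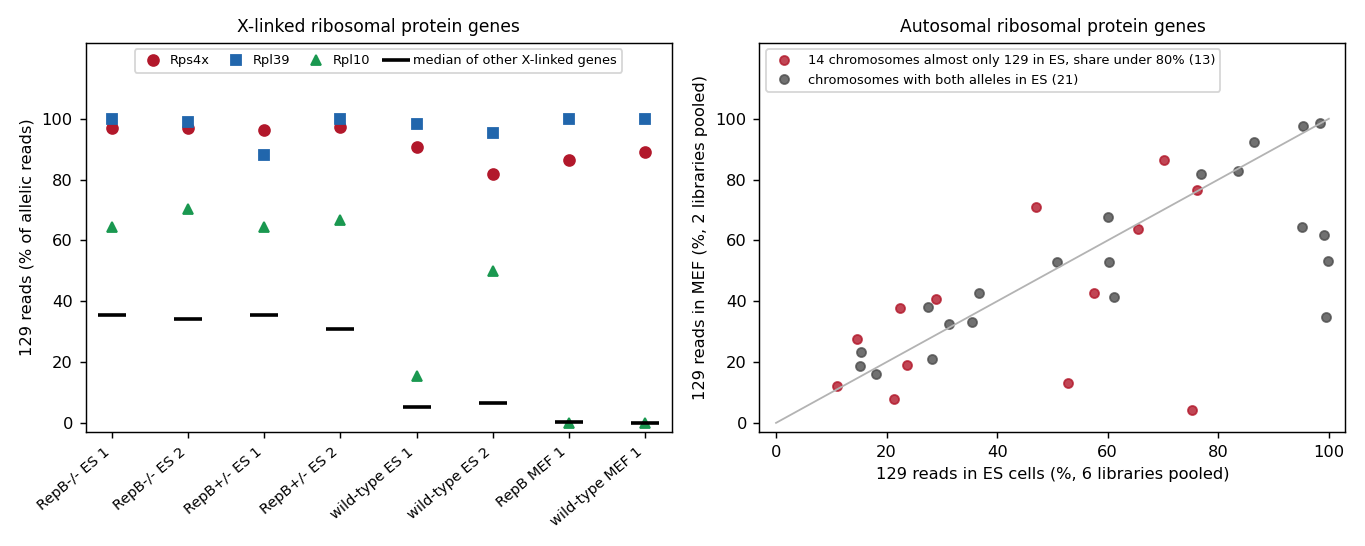
Left, the 129 share of allelic reads (%) of 3 X-linked ribosomal protein genes in each of 8 libraries, with the median of other X-linked genes as a bar. Right, the 129 share of autosomal ribosomal protein genes in MEF (vertical) against ES cells (horizontal), for 13 genes under 80% on chromosomes read almost only as 129 in ES cells (red) and 21 genes on chromosomes with both alleles (grey), with the line of equal shares. Rps4x stays above 80% where the median X-linked gene is under 10%.

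Autosomal genes show how far these shares can be taken. On 14 autosomes of the ES cells nearly all reads were 129 (chromosome medians of 96.7% to 99.7% in pooled wild type over genes other than these), and on chromosomes 5, 7, 8, 9 and 13 both alleles were read (44.1% to 52.6%). On the first 14, 14 of 41 ribosomal protein genes (34.1%) had under 80% of 129 reads, where 14.3% of 7782 other genes had. Under 50% were 8 (19.5%), where 6.63% of the others were. On the 5 chromosomes with both alleles, 11 of 23 ribosomal protein genes (47.8%) had under 20% or over 80%, where 21.6% of 3374 other genes had.

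Rpl19, a large-subunit protein that bridges to the small subunit, lies on chromosome 11 and had 10.95% of 129 reads in the pooled ES libraries and 12.1% in the pooled MEF libraries. Rps21 on chromosome 2 had 65.5% in ES cells and 63.8% in MEF, and Rpl24 on chromosome 16 had 76.1% and 76.6%. Pooled over genotypes, these shares in ES cells lay within 2 points of those in MEF, while Rpl37a on chromosome 1 had 52.9% in ES cells and 13.1% in MEF. Within a genotype the gap could be wider. Rpl24 had 93.72% and 94.51% in wild-type ES cells and 82.09% in wild-type MEF. In RepB it had 61.47% to 89.68% in ES cells and 73.55% in MEF. Of 13 such genes with MEF reads, 8 lay within 15 points of their MEF share, where 740 of 957 other genes under 80% did. The part of near-identical copies elsewhere in the genome in these shares was not tested.

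With that limit, 5 autosomal ribosomal protein genes of 64 changed their ratio in RepB-/- cells and 3 in RepB+/- cells by edgeR (adjusted p under 0.05), where 0.419% and 0.463% of all autosomal genes did, and DESeq2 called none of the 64. Rpl11 had 92.4% and 100.0% of 129 reads in RepB-/- cells, 99.9% and 100.0% in RepB+/- cells and 99.7% and 100.0% in wild type. Its shift of -4.35 ± 0.57 toward CAST in RepB-/- cells (edgeR adjusted p = 2.49e-12) rests on RepB-/- replicate 1 alone, and the call was lost without it. Rpl32, a large-subunit protein, had 20.4% and 84.0% in RepB+/- cells and 79.6% and 78.9% in wild type, so that its shift of -2.12 ± 0.23 in RepB+/- cells (edgeR adjusted p = 2.50e-17) rests on RepB+/- replicate 1. Rpl24 fell to 61.5% and 89.7% in RepB-/- cells and to 69.0% and 75.8% in RepB+/- cells, against 93.7% and 94.5% in wild type, and shifted by -2.28 ± 0.47 (edgeR adjusted p = 7.77e-05) and -2.62 ± 0.47 (edgeR adjusted p = 2.25e-06). All 4 RepB libraries of Rpl24 lie under wild type, and it is the autosomal gene among these whose total and allelic counts were both called in both comparisons. Without RepB-/- replicate 1 the allelic call in RepB-/- cells was lost. The other calls were shifts toward 129, of Rpl7 in both comparisons (1.48 ± 0.32 and 1.19 ± 0.33, edgeR adjusted p = 0.000207 and 0.0169) and of Rpl37a (1.33 ± 0.37, edgeR adjusted p = 0.0148) and Rps15 (1.14 ± 0.20, edgeR adjusted p = 4.52e-07) in RepB-/- cells. The shifts of Rpl7 and Rps15 rest on wild-type replicate 2, where Rpl7 had 82.7% and Rps15 95.9% of 129 reads, against 96.1% and 99.1% in wild-type replicate 1. Without it Rpl7 had 0.092 in RepB-/- and -0.20 in RepB+/- cells, Rps15 had -0.096 in RepB-/- cells, and none of these was called. The call of Rpl7 in RepB+/- cells was also lost without RepB+/- replicate 1, and that of Rpl37a was lost without RepB-/- replicate 1 (0.11) and without wild-type replicate 1 (0.93). Between RepB-/- and RepB+/- cells 5 ribosomal protein genes were called, where 0.302% of all genes, 0.294% of autosomal genes and, toward 129, 0.265% of X-linked genes were. They were Rps15, Rpl37, Rpl32 and the X-linked Rpl39 toward 129 and Rpl11 toward CAST, and DESeq2 called none of the 5. Each was lost without at least 1 library: Rpl37, Rps15, Rpl39 and Rpl11 without RepB-/- replicate 1, Rpl32, Rpl39 and Rpl11 without RepB+/- replicate 1, Rps15 also without RepB-/- replicate 2, and Rps15 and Rpl37 without RepB+/- replicate 2.

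In MEF, with 1 library per genotype, there is no replicate check and no test. The log2 ratio of RepB over wild-type MEF had a median of -0.06 over 72 ribosomal protein genes, against 0.03 over all 11680 genes. More than 2-fold higher were 7 of 72, where 3.33% of all genes were, and more than 2-fold lower were 5, where 6.47% were. Among the 46 genes with at least 200 reads in both libraries, Rpl37, a large-subunit protein, had 131 CPM in RepB MEF and 40.4 CPM in wild-type MEF, a log2 ratio of 1.69 (95% counting interval 1.54 to 1.84). Rps4x followed with 101 and 38.6 CPM (1.38, interval 1.22 to 1.54) and Rps12 with 58.4 and 28.0 CPM (1.05, interval 0.868 to 1.25). Chromosomes 15 and 10, which carry Rpl37 and Rps12, differed as a whole in their 129 share between the MEF libraries. The median of other genes there was 66.05% and 65.89% in RepB MEF and 52.48% and 50.84% in wild-type MEF. The part of this difference in the 2 ratios was not tested.

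Lowest were Rpl36 with 14.1 CPM in RepB MEF and 30.2 CPM in wild-type MEF (-1.09, interval -1.35 to -0.854), Rps7, a small-subunit protein, with 20.3 and 34.3 CPM (-0.75, interval -0.976 to -0.541), and Rps18 with 42.9 and 70.6 CPM (-0.72, interval -0.870 to -0.571). The intervals cover counting error only. Rpl36 and Rps18 are also among the genes that differed by replicate number in ES cells. Rpl37 had 115 and 92 CPM in RepB-/- cells, 77.2 and 96.5 CPM in RepB+/- cells and 94.8 and 60.2 CPM in wild-type ES cells, where its log2 fold changes of 0.41 (edgeR adjusted p = 0.129) and 0.16 (edgeR adjusted p = 0.572) passed no threshold.

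**Figure D5:**
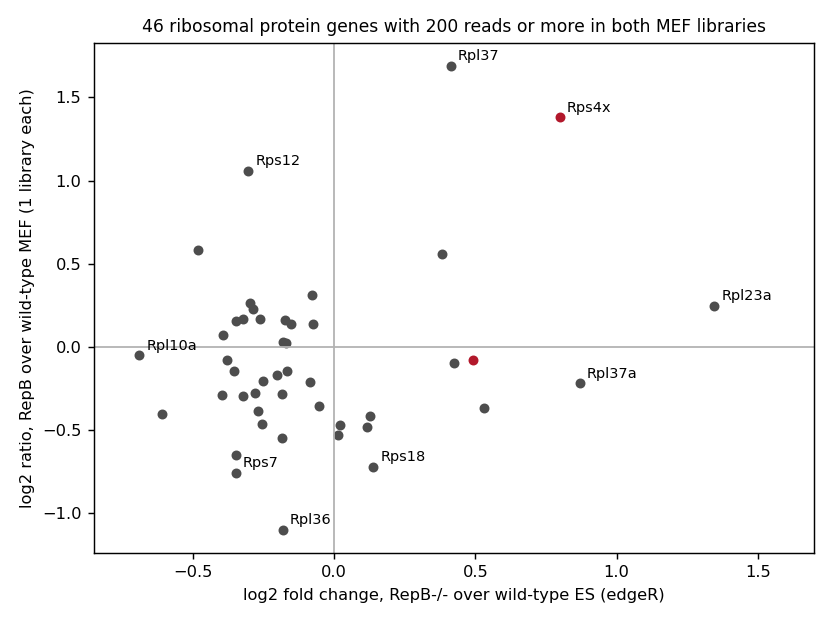
Log2 ratio of RepB over wild-type MEF (vertical, 1 library each) against the log2 fold change of RepB-/- over wild-type ES cells (horizontal) for 46 ribosomal protein genes with at least 200 reads in both MEF libraries, X-linked genes in red. Rps4x and Rpl37 are positive on both axes, Rpl23a stands far right at 1.34 in ES cells, and Rps12 is at 1.05 in MEF and -0.30 in ES cells.

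Between cell types, wild-type ES cells over wild-type MEF had a median log2 ratio of 0.39 over 73 ribosomal protein genes, against 0.07 over 13359 genes, again with 1 MEF library and no test. More than 2-fold higher in ES cells were 12, where 24.7% of all genes were, and more than 2-fold lower were 6, where 15.2% were. High ratios among 44 well-read genes belonged to Rps4x (1.57) and to Rps19, the protein most often mutated in Diamond-Blackfan anaemia, with 53.3 and 52.9 CPM in ES cells and 19.9 CPM in MEF (1.40). The lowest belonged to Rpl28, a large-subunit protein, with 43.6 and 43.4 CPM in ES cells and 94.0 CPM in MEF (-1.12), to Rpl10a (-0.81, 83.9 CPM in MEF) and to Rpl41, with 481 and 563 CPM in ES cells and 788 CPM in MEF (-0.61).

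The widest gap between the cell types was in a copy gene. Rps4l, a gene like Rps4x on chromosome 6 that the tables list as a single exon of 941 bases, had 174 and 137 CPM in RepB-/- cells, 165 and 170 CPM in RepB+/- cells and 161 and 195 CPM in wild-type ES cells. It had 0 counts in both MEF libraries, so that it was at least 611-fold higher in wild-type ES cells than the 3 counts that a 0 allows in wild-type MEF. Its 129 share over the ES libraries was 48.4% on 277 allelic reads, while other genes of chromosome 6 had a median of 99.36% in pooled wild-type ES cells. The copies Rpl10l and Rpl39l were also at 0 in both MEF libraries, and were at least 6.68-fold and at least 4.35-fold higher in wild-type ES cells. Rpl39l had 2.43 and 2.28 CPM in RepB-/- cells, 3.30 and 1.23 CPM in RepB+/- cells and 1.15 and 1.39 CPM in wild-type ES cells, with log2 fold changes of 0.92 (edgeR adjusted p = 0.143) and 1.05 (edgeR adjusted p = 0.0886). Rpl10l is the other gene of the 77 listed as a single exon.

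The other genes of ribosome production were read in the same tests, in which 12.8% of all genes were called in RepB-/- cells and 16.0% in RepB+/- cells. Of 10 ribosomal proteins outside the name pattern, 1 rose in RepB-/- and 1 in RepB+/- cells, in both cases Rpl7l1, a copy of Rpl7 (0.54 ± 0.13, edgeR adjusted p = 0.0108, and 0.48 ± 0.13, edgeR adjusted p = 0.0198). Of 77 mitochondrial ribosomal proteins, 0 were called in RepB-/- cells, by edgeR, and 6 fell in RepB+/- cells, among them Mrpl43 (-0.53 ± 0.13, edgeR adjusted p = 0.0141) and Mrpl14 (-0.44 ± 0.12, edgeR adjusted p = 0.0181). Of 19 translation factors and other TOP mRNAs, 2 fell in RepB-/- cells, the elongation factor subunit Eef1g (-0.51 ± 0.12, edgeR adjusted p = 0.0104) and Tpt1 (-0.33 ± 0.10, edgeR adjusted p = 0.0389), and 1 fell in RepB+/- cells, Tpt1 (-0.40 ± 0.10, edgeR adjusted p = 0.0150). The medians of this list were -0.13 and -0.16.

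Ribosome assembly factors had 2 of 30 risen in RepB-/- cells and 6 risen and 1 fallen in RepB+/- cells. The 2 were Dkc1, the pseudouridine synthase dyskerin, with 62.3 and 52.4 CPM in RepB-/- cells, 72.2 and 53.0 CPM in RepB+/- cells and 31.6 and 28.0 CPM in wild type, and Utp14a, a factor of small-subunit processing, with 41.3 and 38.6, 51.5 and 47.0, and 24.9 and 29.5 CPM in the same order. Both are X-linked, and neither shows overlap between RepB and wild-type libraries. Dkc1 rose by 0.95 ± 0.14 in RepB-/- cells (edgeR adjusted p = 0.000487) and Utp14a by 0.56 ± 0.12 (edgeR adjusted p = 0.00622). Of 17 genes of RNA polymerase I, which makes most of the ribosomal RNA, 1 rose in RepB-/- cells, Cd3eap (0.47 ± 0.13, edgeR adjusted p = 0.0215), and 3 in RepB+/- cells, among them Ubtf (0.53 ± 0.10, edgeR adjusted p = 0.00344).

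Of 15 genes of the MYC and mTOR pathways, which set ribosome production, Myc itself was the one called, and it fell in both comparisons. It had 34.9 and 31.3 CPM in RepB-/- cells, 33.6 and 39.8 CPM in RepB+/- cells and 47.7 and 51.4 CPM in wild type, with log2 fold changes of -0.58 ± 0.12 (edgeR adjusted p = 0.00533) and -0.44 ± 0.12 (edgeR adjusted p = 0.0252). No RepB library overlaps wild type. Among 10 host transcripts of small nucleolar RNAs, 1 rose, Snhg3 in RepB+/- cells (0.94 ± 0.29, edgeR adjusted p = 0.0404), and 0 were called in RepB-/- cells.

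The cell mixture moved in the same comparisons. Pluripotency markers rose in 6 of 8 genes in RepB-/- cells and 8 of 8 in RepB+/- cells, for example Nanog (1.36 ± 0.15, edgeR adjusted p = 5.55e-05, and 1.65 ± 0.16, edgeR adjusted p = 1.67e-05) and Sox2 (1.10 and 1.63). Cardiac muscle markers fell in 5 of 8 genes in both, led by the myosin heavy chains Myh7 (-2.21 and -1.40) and Myh6 (-2.09 and -1.46). Endoderm markers rose in 2 and 6 of 7 genes, among them Afp (1.40 and 1.67) and Apob (1.18 and 1.60). Of 8 fibroblast markers 3 rose and 1 fell in both comparisons, with Dcn at 0.97 and 0.84 and Postn at -0.84 and -0.80.

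Of 6 neural markers 2 rose and 2 fell in RepB-/- cells and 3 rose and 2 fell in RepB+/- cells, with Nes at 0.74 and 1.02 and Stmn2 at 0.89 and 1.06 among those that rose. Those that fell, named after their values were seen, were Pax6 (-2.22 and -1.86) and Tubb3 (-0.62 and -0.58). Of 6 blood markers 2 rose in both, Csf1r (0.54 and 0.56) and Spi1 (1.03 and 1.09). Of 8 proliferation markers 2 rose in both, Bub1 (0.38 and 0.62) and Mcm6 (0.38 and 0.59). Values are log2 fold changes, RepB-/- before RepB+/-. The part of these shifts in the changes of Rpl11, Rpl24 and the other called genes was not tested.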

How the data were processed

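The 3 deposited tables give the authors' raw counts of reads per gene, as whole numbers, for all reads and for reads given to 129 or CAST. Allele columns are headed mus and cas; given the 2 parental strains named in the labels, mus was read as 129. Per the file headers they have the featureCounts layout with mm9 positions. Per the submitters' processing notes the series used Novoalign, TopHat, cutadapt, SAMtools, bedtools, HOMER, Juicer and featureCounts. Strand setting and treatment of multiply mapped reads are not given in the sources used here. Of 50 samples, 8 have these tables and 42 were not analysed here.

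edgeR 4.0.16 in R 4.3.3 fitted the 6 ES libraries together (filterByExpr with minimum count 10 and total 15, TMM, genotype as the only term). Fold changes and ± values in edgeR results are log2 and SE. Printed CPM and RPKM use TMM library sizes over all 8 libraries. Ratios of 129 to CAST were tested in genes with a mean of at least 20 allelic reads (11597), with library as a block, in the same tool. MEF ratios use a prior count of 2 and genes averaging at least 1 CPM. DESeq2 1.42.0 was an alternative. Both edgeR fits were tested on simulated data. Genes given in full were those X-linked, ending in l or x, highest and lowest 4 by RPKM, at 0 in a library, at most 6 called per direction, or with the 3 most extreme MEF ratios each way, and at most 2 called per list. Those named for replicate spread or allelic shares were chosen after their values were seen. The members and lists were chosen with earlier results of these data known. A few genes that this rule would name are not reported here.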

Additional observations from a re-analysis of the deposited data

Results flagged for a closer look

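Among genes with at least 200 reads in both MEF libraries, 2 had all 4 RepB ES libraries under both wild-type libraries and a RepB MEF library above wild-type MEF by more than counting error. Fewer reads stood behind Rps27, Rps28 and Rpl34, which had the same order of libraries. Rps12 had a log2 ratio of 1.06 between the MEF libraries (95% counting interval 0.868 to 1.25, without a prior count), against log2 fold changes of -0.30 in RepB-/- and -0.64 in RepB+/- ES cells. Rps19 had 0.264 in MEF (interval 0.019 to 0.512), against -0.30 and -0.39. Rps12 lies on chromosome 10 and Rps19 on chromosome 7. Other genes there had median 129 shares of 65.89% and 65.4% in RepB MEF and 50.84% and 46.12% in wild-type MEF. The part of this in the MEF ratios was not tested. The difference between ES cells and MEF was not tested, since MEF has 1 library per genotype.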

How the results depend on the processing

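Medians and shares moved by less than the replicate spread, which is wide here, and some turned sign: the median of RepB-/- against RepB+/- ran from -0.24 without RepB-/- replicate 1 to 0.13 without RepB-/- replicate 2. The count of X-linked allelic calls against wild type was 1 throughout. Counts of called ribosomal protein genes moved further. For RepB+/- against wild type the count of 8 became 5 with total counts, 5 with DESeq2 and 23 with no filter on low counts. Of all genes, 1382 rose and 1036 fell in the main fit, and 1612 and 565 with total counts. With DESeq2 1057 rose and 982 fell, and with no filter 1779 and 1255 of 20007. For RepB-/- against wild type 9 became 2 with DESeq2 and 26 with no filter. Of all genes, 1101 rose and 832 fell in the main fit, 851 and 800 with DESeq2, and 1540 and 1041 with no filter. For RepB-/- against RepB+/- 0 became 4 with no filter. There 50 of all genes rose and 74 fell, against 3 and 10 in the main fit. In the order of these comparisons, leaving out 1 ES library gave 3 to 21, 2 to 24 and 0 to 4. With 1 library left in a genotype, that library is assumed to vary like the others. With the replicate block the counts, in the order of these comparisons, were 18, 27 and 1. Of all 15149 genes, 1944 rose and 1675 fell, 1667 rose and 1493 fell, and 31 rose and 49 fell, in the same order. The calls then included Rps4x in both comparisons with wild type (0.68 in each, edgeR adjusted p = 0.000462 in RepB-/- and 0.000502 in RepB+/- cells) and Rpl10 in RepB-/- cells (0.65, edgeR adjusted p = 0.00625). The cause was not tested. The labels do not say that replicate numbers pair samples, and the deviations of same-numbered libraries correlated at 0.185, 0.0729 and 0.0966 over all genes and at 0.28, 0.422 and 0.293 over the ribosomal protein genes. Rpl36a in RepB+/- cells ran from -0.065 without RepB+/- replicate 1 to 3.12 without RepB+/- replicate 2. All 17 calls against wild type were lost under at least 1 of 14 alternatives. Over all pairs of a single gene's result and an alternative, a call was lost in 62, gained in 13 and unchanged in 288. In 1 more, Rpl36a in RepB+/- cells without RepB+/- replicate 1, the call was lost and the sign turned. With total counts the median of RepB+/- cells became 0.00 and that of RepB over wild-type MEF 0.07, against -0.06 in both. With the trend on gene length removed, the medians were -0.28 for RepB-/- and -0.13 for RepB+/- against wild type and -0.07 for RepB-/- against RepB+/-, where all genes had -0.06, -0.07 and 0.01. The share outside mitochondrially encoded genes was not run, because those genes are not in the tables used. Depth limits RepB+/- replicate 2 and all allelic shares of Rpl10 and Rpl36a.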
